A study of Marchantia polymorpha with 6 samples.

Results

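Copia elements are one of the large superfamilies of LTR retrotransposons. In the genome annotation of the liverwort Marchantia polymorpha, 6482 Copia copies lay on the 8 autosomes, out of 89262 annotated element copies in all. They were taken as every row of the authors' element annotation with class LTR and superfamily Copia on chromosomes 1 to 8. The series set 3 RNA-seq libraries from Tak-1, a male wild type, beside 3 from the mutant Mpmet-3, all made from polyA RNA of thalli, the flat body of the haploid plant, at 14 days under continuous white light. Mpmet-3, the only mutant allele in the series, is a loss of function of MpMET. Neither deposited file holds a value for a library, so expression was not analysed here, the depth of the libraries is unknown, and nothing below speaks of what the mutant changed. Coordinates are those of the MpTak1 v5.1 revision 2 genome.

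An LTR retrotransposon moves by copying its RNA into DNA that is inserted elsewhere. Its ends are long terminal repeats (LTRs), which hold the signals that start and end its transcript, and its inner part encodes the proteins for packaging, reverse transcription and integration. In Copia elements the integrase is encoded ahead of the reverse transcriptase, and in Gypsy elements behind it. Plants silence such elements with DNA methylation, and enzymes of the MET type keep methylation at CG sites when DNA is copied.

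Copia sequence was spread over all autosomes and made up a small part of each. It covered 4.09 Mb of 208 Mb, which was 1.96% of the autosomes and 8.26% of their element sequence. Chromosome 6 had the highest cover with 2.43%, followed by chromosome 1 with 2.28% and chromosome 3 with 2.11%. Chromosome 2 had 1.89%, chromosome 5 1.80%, chromosome 7 1.78% and chromosome 8 1.71%. The lowest cover was 1.64%, on chromosome 4. The mean was 1.96% ± 0.285 (SD, n = 8 chromosomes), and the density 30.9 copies per Mb, from 26.8 on chromosome 4 to 36.7 on chromosome 1. Other superfamilies claimed 3.71% of the Copia bases too.

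The copies fell into 3 kinds. Inner parts, with labels ending in INT, were the most common with 4962 copies under 38 family labels. Terminal repeats, with labels ending in LTR, had 1474 copies under 27 labels. A further 46 copies were found by their structure, that is as whole elements with a pair of terminal repeats. All other copies were found by their likeness to a library entry, as read from their identifiers. Inner parts held 84.1% of the summed copy length, terminal repeats 8.70% and structure-based copies 7.23%. Among Gypsy copies of the same chromosomes the order was the other way, with 13560 terminal repeats and 10224 inner parts.

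Most Copia copies were short pieces. The median length was 286 bp, 29.3% were under 200 bp and 15.8% reached 1 kb. Inner parts had a median of 354 bp and a longest copy of 5639 bp, while terminal repeats had a median of 234 bp and never exceeded 879 bp. Chromosome medians of terminal repeats lay between 225.5 and 240 bp, and those of inner parts between 291 and 379 bp, so the ranges did not overlap. The mean difference was −119 ± 27.7 bp, with shorter terminal repeats on each chromosome (exact sign-flip permutation, 2-sided, n = 8 chromosomes, adjusted p = 0.0221). This p-value was adjusted over the 17 planned comparisons, and the smallest raw p that 8 chromosomes allow is 0.00781. Chromosomes belong to 1 annotated genome, so none of these p-values speaks of variation between plants.

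Terminal repeats and inner parts were shorter in Copia than in Gypsy, while structure-based copies had medians of 6460 and 6062 bp. Gypsy terminal repeats had chromosome medians of 459 to 713 bp, against 225.5 to 240 bp for Copia. The mean difference was −411 ± 83.7 bp (exact sign-flip permutation, n = 8, adjusted p = 0.0221). The lowest chromosome median of Gypsy inner parts was 554 bp, above the Copia range of 291 to 379 bp. Their mean difference was −207 ± 29.8 bp (exact sign-flip permutation, n = 8, adjusted p = 0.0221).

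**Figure D1:**
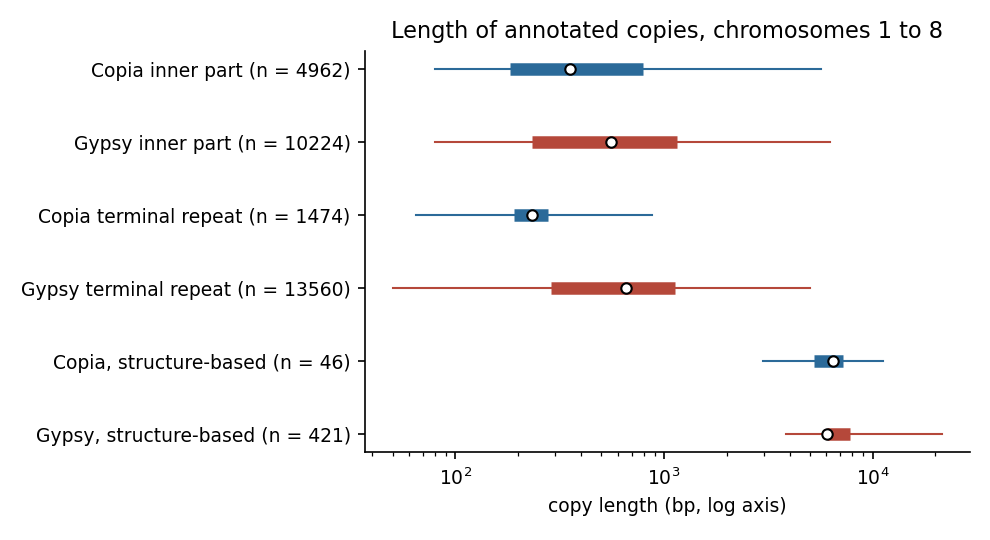
Length of annotated copies on chromosomes 1 to 8, in bp on a log axis, for Copia (blue) and Gypsy (red). Thin lines run from the shortest to the longest copy, thick bars over the middle 50% of copies, and white points mark the median; structure-based copies of both superfamilies have medians above 6 kb, at 6460 and 6062 bp, and all other kinds have medians under 1 kb.

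The pieces could be joined into fewer loci. When Copia copies of 1 strand were joined over gaps of at most 500 bp, they formed 4163 loci, of which 65.5% held a single copy and 369 spanned at least 3 kb. The locus with most pieces held 9 copies. No family label was used for both terminal repeats and inner parts, in Copia or in Gypsy. A planned count of terminal repeats without an inner part of their own label therefore gave 100% in both, and carries no information.

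Which terminal repeat belongs to which inner part was read from neighbours instead. A terminal repeat lay within 50 bp of a Copia inner part, next to it and on its strand, at 1235 junctions. At 753 of them (61.0%) the repeat was labelled Copia, at 348 Gypsy and at 134 LTR of no superfamily. Some pairs were nearly exclusive: TE_00000598 made up 141 of 160 junctions of TE_00000828, TE_00000926 made up 57 of 66 of TE_00000654, and TE_00000705 made up 55 of 69 of TE_00001175. The family TE_00001053 departed from its label, since its leading repeat was TE_00000520, a Gypsy label, at 54 of 68 junctions.

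Unbroken runs of repeat, inner part and the same repeat, with gaps of at most 50 bp, numbered 45. Their median length was 5064 bp and 33 of them reached 4 kb, in a range of 454 to 6814 bp. The pair TE_00000926 and TE_00000654 supplied 14 runs with a median of 5060 bp, and TE_00000705 with TE_00001175 supplied 10 with a median of 4988 bp. These runs used 6.11% of the Copia terminal repeats.

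The 46 structure-based copies had a median length of 6460 bp, the shortest being 2990 bp and the longest 11175 bp. No homology copy was as long as that median. They came from 27 family labels, 25 of which also had homology copies. The longest on each chromosome were of 11175 bp (TE_00000762, chromosome 1), 9784 bp (TE_00000771, chromosome 2), 6573 bp (TE_00000824, chromosome 3), 5226 bp (TE_00000508, chromosome 4), 7604 bp (TE_00000501, chromosome 5), 8869 bp (TE_00001255, chromosome 6), 6504 bp (TE_00001223, chromosome 7) and 11156 bp (TE_00000849, chromosome 8). The first is unusual in its label: TE_00000762 is the family of only 2 Copia copies in the whole annotation, both structure-based, and of 1964 Gypsy copies.

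In intronic share and distance to genes, no difference between structure-based and homology copies passed the test. Of the 46 structure-based copies 36 (78.3%) lay outside genes, 7 touched a gene's exon or edge and 3 lay wholly in an intron. The genes touched were mostly made of Copia sequence. It held 78.1% to 100% of their exon bases, except for 11.6% in Mp2g02360. Among homology copies, 95.2% of inner parts and 93.6% of terminal repeats lay outside genes. An exon or gene edge was touched by 102 of 4962 inner parts and 43 of 1474 terminal repeats. These contrasts with structure-based copies were not tested, and the kinds differ in length. Medians were 6460 bp for structure-based copies, 354 bp for inner parts and 234 bp for terminal repeats. Outside genes, the mean of chromosome medians was 4098 bp from the nearest gene for structure-based and 4423 bp for homology copies. The mean difference was −325 ± 1156 bp (exact sign-flip permutation, n = 8, adjusted p = 0.603). For the intronic share the difference was 1.88 ± 10.2 percentage points (exact sign-flip permutation, n = 8, adjusted p = 0.744). With 1 to 10 structure-based copies on a chromosome, these differences had wide errors.

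A few families held most of the sequence. The 10 families with most bases covered 2463 kb, 60.2% of Copia bases, and all 10 were inner parts. TE_00000923 came first with 403 kb in 403 copies, 3 of them structure-based. On chromosomes 1 to 8 it held 73.9, 54.3, 75.5, 45.7, 46.2, 44.9, 19.2 and 43.9 kb, so chromosome 7 had the least. TE_00000824 followed with 322 kb, TE_00000828 with 297 kb, TE_00000849 with 267 kb and TE_00001223 with 249 kb. TE_00001255 and TE_00000670 held 207 kb each, TE_00001175 held 180 kb and TE_00000654 held 170 kb. Of the 67 labels, 37 had copies on all 8 chromosomes.

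The last of the 10 families, TE_00000812, was unlike the other large families. It had the most copies of any label, 580, with 161 kb, a median length of 190 bp and no structure-based copy. On chromosomes 1 to 8 it had 51, 93, 69, 75, 106, 96, 38 and 52 copies, none of them in an intron. Its copies lay a median of 10275.5 bp from the nearest gene, against 3481 to 4945 bp for the other 9 families, and 3 of 580 lay within 1 kb. Of its 937 neighbours within 50 bp, 219 were the Gypsy family TE_00000862, all on the same strand, and 116 were TE_00001054, a short inverted-repeat label of the Mutator group. Whether its sequence is that of a Copia element was not tested.

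Copia copies touched other elements often. Of all copies 73.0% had another element within 50 bp. Among these neighbours 48.2% were Copia and 21.7% Gypsy, and 985 of 6552 were LTR of no superfamily. Copia neighbours lay on the same strand in 94.1% of cases and Gypsy neighbours in 53.1%. A copy of another superfamily sat between 2 Copia copies of 1 label and strand, with gaps of at most 10 bp, in 76 places, and 48 of these inner copies were Gypsy. The reverse arrangement, a Copia copy inside another superfamily, was found in 20 places, 10 of them in Gypsy.

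Copia lay outside genes for the most part, but closer to them than Gypsy. Of the Copia bases 95.7% were outside genes, 3.26% in introns and 0.996% in exons, while introns and exons made up 12.8% and 20.4% of the autosomes. The median distance from a copy outside genes to the nearest gene was between 3762 and 4951 bp on the 8 chromosomes. For Gypsy it was between 6664 and 10280 bp, with no overlap. The mean difference was −4161 ± 1054 bp (exact sign-flip permutation, n = 8, adjusted p = 0.0221). Within 1 kb of a gene lay 6.32% ± 0.933 of Copia and 2.95% ± 0.505 of Gypsy copies outside genes (exact sign-flip permutation, n = 8, adjusted p = 0.0221).

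The share of bases in introns was higher for Copia than for Gypsy on all 8 chromosomes. For Copia it was 2.71%, 0.986%, 3.12%, 3.18%, 3.87%, 4.30%, 5.25% and 3.51% on chromosomes 1 to 8, and the highest Gypsy value was 0.322%. The groups did not overlap. The mean difference was 3.14 ± 1.26 percentage points (exact sign-flip permutation, n = 8, adjusted p = 0.0221). LTR elements of no superfamily had 0.997% ± 0.482 in introns. Copia exceeded them on 7 of 8 chromosomes, by 2.37 ± 1.39 points (exact sign-flip permutation, n = 8, adjusted p = 0.0266), and chromosome 2 went the other way.

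In exons Copia lay between the other LTR groups. It had 0.943% ± 0.649 of its bases there, Gypsy 0.230% ± 0.131 and LTR elements of no superfamily 3.37% ± 2.53. Copia was above Gypsy on 7 of 8 chromosomes, by 0.713 ± 0.654 points (exact sign-flip permutation, n = 8, adjusted p = 0.0266), with chromosome 7 the exception. It was below the unclassified elements on 7 of 8, by −2.42 ± 2.47 points (exact sign-flip permutation, n = 8, adjusted p = 0.0266), with chromosome 5 the exception. These last comparisons, and the one with unclassified elements in introns, passed by little. With any 1 of 6 chromosomes left out, the adjusted p of each became 0.0531 in the same exact permutation test. The chromosome that went the other way was then still included, and the raw p was the lowest this allows. The loss thus follows from the number of chromosomes and singles out none of them.

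**Figure D2:**
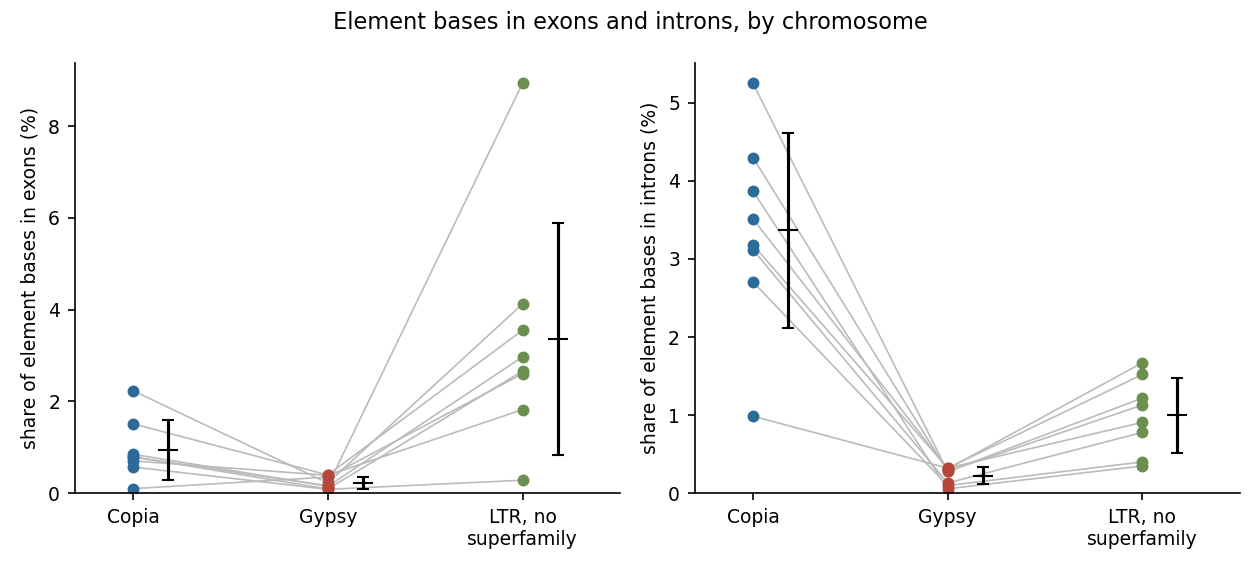
Share of element bases in exons (left) and introns (right) in percent, for Copia, Gypsy and LTR elements of no superfamily. Each point is 1 of 8 chromosomes, grey lines join the values of a chromosome, and black marks give the mean and SD; every chromosome has a higher intron share for Copia than for Gypsy, and the point at 8.93% in exons is chromosome 8.

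In intronic share and the share within 1 kb of a gene, no difference between terminal repeats and inner parts passed the test. Wholly within an intron lay 3.50% ± 1.65 of the repeats and 2.88% ± 1.34 of the inner parts, a difference of 0.616 ± 1.52 points (exact sign-flip permutation, n = 8, adjusted p = 0.423). Within 1 kb of a gene lay 7.31% ± 2.53 of the repeats outside genes and 6.03% ± 1.11 of the inner parts, a difference of 1.28 ± 3.01 points (exact sign-flip permutation, n = 8, adjusted p = 0.432).

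Intronic Copia copies came from few families. In all 190 copies (2.93%) lay wholly within an intron, and 23 of the 67 labels had at least 1 such copy. The 5 labels with most of them, singled out after their values were seen, held 152 of the 190 (80%) but 5.12% of all Copia copies. They were the inner parts TE_00000731 with 58 of its 94 copies in introns, TE_00001260 with 49 of 140 and TE_00000796 with 10 of 35, and the terminal repeats TE_00000787 with 21 of 35 and TE_00000843 with 14 of 28. All other labels together had 38 of 6150 copies in introns (0.618%). The 10 largest families had 8 of 2928 (0.273%).

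Pooled, the 5 labels had a higher intronic share than the other labels on every chromosome. It was 25.6%, 47.1%, 40.9%, 51.2%, 38.7%, 63.6%, 82.1% and 39.3% on chromosomes 1 to 8. For the other labels the mean share was 0.639% ± 0.305 (SD, n = 8), and for Gypsy 0.259% ± 0.0895 (SD, n = 8). Without the 5 labels Copia was above Gypsy on 7 chromosomes and below it on chromosome 2, with 0.344% against 0.391%. These Copia shares rested on only 3 to 10 intronic copies a chromosome. Of the 38 copies, TE_00000989 held 9 and TE_00001235 held 7, all 7 on chromosome 3. Without these 2 labels as well, 22 of 6083 Copia copies were intronic (0.362%), against 63 of 24205 for Gypsy (0.260%). Single labels varied: TE_00000787 had no copy on chromosome 5, TE_00000796 none on chromosome 3, and neither of the 2 copies of TE_00000843 on chromosome 7 was intronic. TE_00000731 had 6, 6, 12, 6, 2, 12, 12 and 2 intronic copies on chromosomes 1 to 8, and TE_00001260 had 5, 6, 4, 9, 6, 3, 12 and 4. On chromosome 7 all 12 copies of TE_00001260 were intronic. Since the labels were chosen for these values, no test was made.

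**Figure D3:**
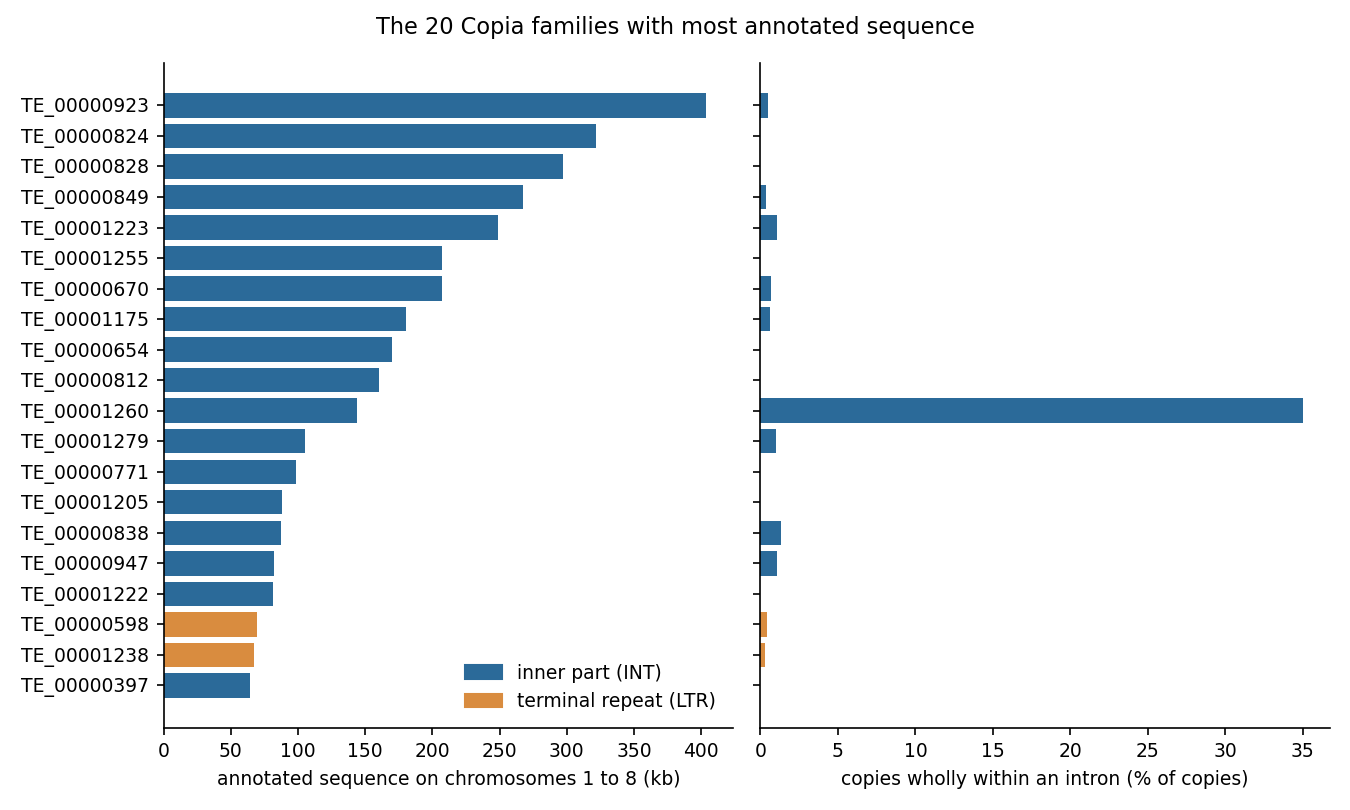
The 20 Copia families with most annotated sequence on chromosomes 1 to 8, with inner parts in blue and terminal repeats in orange. The left bars give kb and the right bars the percent of copies wholly within an intron; TE_00001260, eleventh by sequence, reaches 35% and none of the other 19 exceeds 1.33%.

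Labels rich in introns were often neighbours of each other. For these 5 and the terminal repeat TE_00000989, with 9 of 16 copies in introns, 220 of 293 neighbours within 50 bp (75.1%) carried 1 of the 6 labels, and 192 of these were on the same strand. Of the 220, 74 were a label beside itself and 146 (49.8% of neighbours) were another of the 6, each such pair being counted from both sides. For all other Copia labels 16.0% of 6259 neighbours were of the copy's own label, and 8 were of the 6. TE_00000843 touched TE_00001260 in 19 of 22 cases, TE_00000787 in 10 of 18 and TE_00000989 in 4 of 6. TE_00000731 touched TE_00001260 in 14 of 64 cases. Its most frequent neighbour was the Mutator-type short label TE_00000794, in 22 of 64 cases and always on the same strand, and whether its sequence is that of a Copia element was not tested. Outside genes, copies of the 5 labels lay a median of 2604 bp from a gene, and 22 of 146 lay within 1 kb.

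Intronic copies lay more often on the strand opposite to the gene. With the longest copy taken for each gene, 64 of 89 genes (71.9%, 95% Wilson interval 61.8% to 80.2%) held an antisense copy and 25 a sense copy. The interval covers counting error only. A single antisense copy lay in introns of 2 overlapping genes on chromosome 1 and counts for both, and counted once it leaves 63 of 88. Antisense copies were in 13 of 18 genes on chromosome 1, 8 of 9 on chromosome 2, 8 of 11 on chromosome 3 and 8 of 12 on chromosome 4. They were in 5 of 6 on chromosome 5, 10 of 12 on chromosome 6, 9 of 13 on chromosome 7 and 3 of 8 on chromosome 8. The share was thus above 50% on 7 chromosomes and below it on chromosome 8. The mean excess over 50% was 21.7 ± 15.9 points (exact sign-flip permutation, n = 8, adjusted p = 0.0266). It did not pass with the copy nearest the gene start in place of the longest (20.4 points, exact permutation, adjusted p = 0.0664), nor in genes with a single intronic copy (18.3 points, adjusted p = 0.266). Nor did it pass with any of chromosomes 2 to 7 left out (exact permutation, adjusted p = 0.0531). Chromosome 8 was then still included, and the raw p was the lowest this allows, so the loss singles out no chromosome.

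The excess over other LTR groups was examined after these values were seen. Intronic Gypsy copies were antisense in 16 of 37 genes and LTR elements of no superfamily in 38 of 89. Over chromosomes the Copia share was higher by 27.2 ± 28.7 points than that of Gypsy (exact sign-flip permutation, n = 8, adjusted p = 0.0469 over 2 tests). Against the unclassified elements it was higher by 29.98 ± 21.4 points (exact sign-flip permutation, n = 8, adjusted p = 0.0313). Both differences were positive on 7 of 8 chromosomes. The Gypsy shares rested on only 2 to 9 genes a chromosome, so 1 gene can move them widely. Those of the unclassified elements rested on 8 to 17. Both p-values were adjusted apart from the 17 planned comparisons.

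The antisense count varied with the kind of copy and the label. Inner parts were antisense in 51 of 66 genes (77.3%, 95% Wilson interval 65.8% to 85.7%) and terminal repeats in 11 of 20 (55%, 34.2% to 74.2%), a difference that was not tested. Where TE_00000731 was the longest copy, 24 of 28 genes held it antisense, and where TE_00001260 was, 21 of 25 did. In the genes represented by another label the count was 19 of 36 (52.8%), and the terminal repeat TE_00000843, one of the 5 labels above, was antisense in 0 of 4. With both labels left out before the longest copy was chosen, 36 of 55 genes (65.5%, 52.3% to 76.6%) had an antisense copy. With all 5 labels left out in this way, it was 15 of 25 (60%, 40.7% to 76.6%). Among the genes whose longest copy carried none of the 5 labels, 10 of 20 held it antisense. Whether the excess holds outside the 5 labels was not tested. By length, the antisense count was 36 of 54 for copies under 500 bp, 18 of 22 from 500 bp to 2 kb, and 10 of 13 from 2 kb on. On V, the male sex chromosome, which is outside the autosomes, 16 of 23 genes with an intronic Copia copy held it antisense. The strand is the one the annotation gives, and the direction in which a copy is transcribed was not examined.

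**Figure D4:**
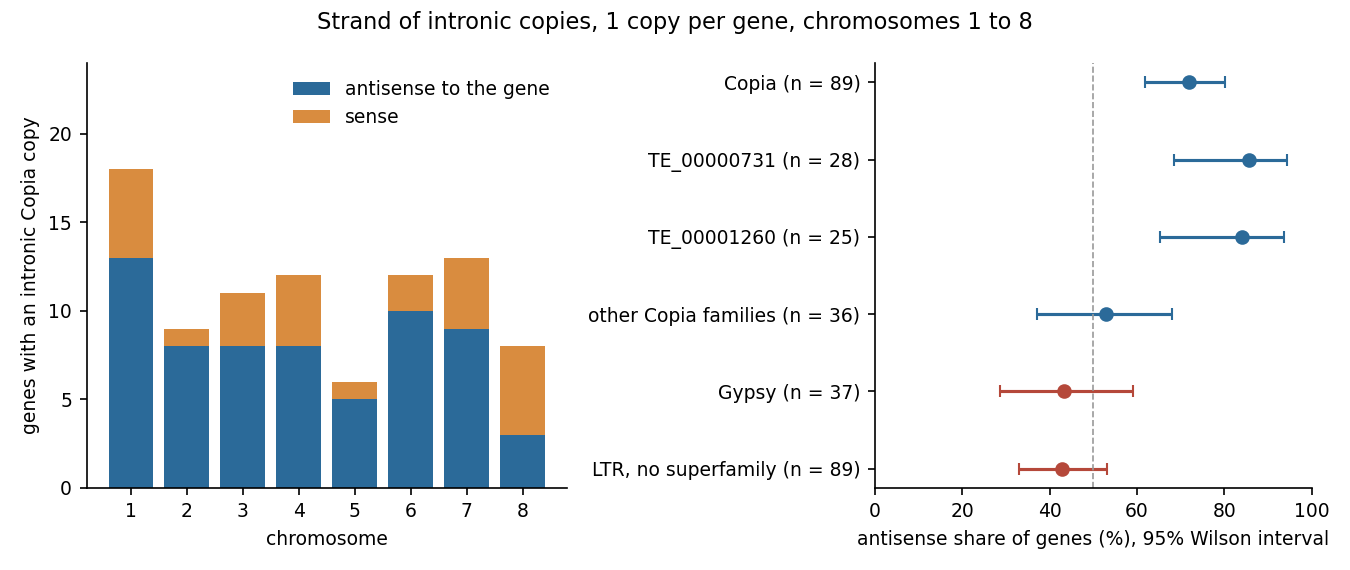
Strand of intronic copies with the longest copy taken for each gene. Left, number of genes on each chromosome with an antisense (blue) or sense (orange) Copia copy, where chromosome 8 alone has more sense than antisense; right, antisense share in percent with 95% Wilson intervals for Copia, its 2 leading labels, its other labels, Gypsy and LTR elements of no superfamily, with the dashed line at 50%.

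Upstream of genes no such excess was seen. A Copia copy reached into the 1 kb before the start of 148 of 19105 genes (0.775%), and the nearest was antisense in 73 and sense in 75. The share over chromosomes was 47.8% ± 17.5, which did not differ from 50% by the test (exact sign-flip permutation, n = 8, adjusted p = 0.863). It ranged from 14.3% on chromosome 5, with 2 of 14 genes, to 71.4% on chromosome 6, with 15 of 21.

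The genes with intronic copies were all coding, but only 0.0407% of all autosomal introns lie in noncoding genes. The host introns were long. The host introns were taken once per gene, 89 in all, of which 88 are distinct, since 2 overlapping genes share 1. Their median length was 2839 bp (2638 bp over the distinct introns), and without their Copia bases 1341 bp, against 233 bp for all 78649 introns of the autosomes. An intron shorter than a copy cannot hold it, so the lengths are set in part by the choice. Copia made up 36.7% of the host introns, and at least 50% of 27 of them. The coding region enclosed 76 of the 89 introns (85.4%, against 90.9% of all introns). In the 5′ untranslated part lay 6 (6.74%, against 5.94% of all introns and 12.9% of introns of at least 1 kb). In the 3′ untranslated part lay 7 (7.87%, against 3.14% of all introns). For this part the share among introns of at least 1 kb was not computed, so length is not accounted for. These shares were not tested. The first intron of the gene was the host in 9 cases (10.1%), against 17.8% of all introns and 41.4% of introns of at least 1 kb.

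Some intronic copies formed elements, from partial to near whole. In 8 genes an intron held a repeat, inner part and the same repeat on 1 strand, and all 8 were antisense to the gene. These elements spanned 2328 to 5848 bp. Only those in Mp4g13950 and Mp6g08290 were also among the unbroken runs described above, so the 8 were joined by a looser rule. The longest, in Mp7g11310, held 4807 bp of Copia copies in its 5848 bp. The most complete was in Mp4g13950 (chromosome 4, 16068773 to 16083697, minus strand), where intron 11 of 28 held a 258 bp repeat TE_00000843, a 4487 bp inner part TE_00001260 and a second 258 bp repeat with no gap. This element of 5003 bp left 278 bp of the intron's 5281 bp. In Mp6g08290 (chromosome 6, 9115102 to 9129137, plus strand) a 5257 bp element of TE_00000705 and TE_00001175 lay in an intron of the 5′ untranslated part. The inner part was TE_00001260 in the other 7.

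The 3 structure-based copies in introns lay in Mp5g14360, Mp1g17470 and Mp5g22800. Mp5g14360 (chromosome 5, 15624467 to 15643171, minus strand) held the most intronic Copia sequence of all genes, 7720 bp in 4 copies. A 4910 bp copy of TE_00001260 lay antisense in its intron 8 of 12. Mp1g17470 (chromosome 1, 17782386 to 17790807, minus strand) held a sense copy of 5100 bp, TE_00001279, in the only intron, which lies in the 3′ untranslated part. In Mp5g22800 the copy was TE_00000796, of 3250 bp and antisense.

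Of the 10 genes with most intronic Copia bases, 8 had TE_00001260 as the longest copy and 7 held the longest copy antisense. Mp8g10170 came second with 7643 bp, in a pair of TE_00001260 copies on opposite strands within intron 7 of 20, the longer one sense. Mp7g11310 held 4807 bp, Mp1g11840 4658 bp and Mp6g01200 4359 bp, each with the longest copy antisense. Mp6g10660 held a single sense copy of 4358 bp. In Mp7g07580, 5 copies of TE_00000731 and TE_00001260 filled 4201 of the 4266 bp of the last of 48 introns.

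Exons with Copia sequence were found in 95 genes (0.497%), of which 92 were coding. The median was 240 bp a gene, and in 50 genes the sequence reached the coding part. Some of these genes resembled each other. Mp6g13490, Mp6g13510, Mp6g13520, Mp6g13540 and Mp6g13550 each had 323 of 996 coding bp in Copia, with TE_00001138 as the leading label. Mp3g07700 and Mp3g07710, each of 21 exons, both had 225 coding bp in Copia, led by TE_00001235. Of 25 copies of TE_00001138, 17 touched an exon or gene edge. Whether such genes hold separate insertions was not tested. At least 50% of the exon bases were Copia in 28 genes, 25 of them coding. The copy with most exon bases was antisense in 49 genes and sense in 46. The 10 genes with most Copia bases held 35.6% of the sum over the 95 genes.

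Mp3g11440 (chromosome 3, 11025793 to 11032140, plus strand) came first, with 3522 of 5530 exon bp in 5 copies and none in the coding part. The copy with most of these bases was antisense. Its neighbour Mp3g11450 held 974 bp, and both had TE_00000731 as the leading label. The 100 kb window around them (chromosome 3, 11000001 to 11100000) had 17.4% Copia cover, the highest outside chromosome 6, with 13.3 kb from TE_00000731. Mp6g08660 (chromosome 6, 9494596 to 9509183, minus strand) followed with 1753 bp of an antisense TE_00001260 copy in untranslated sequence. Mp8g00200 (chromosome 8, 234709 to 236353, minus strand) was a single exon with 92.3% of its bases, and its whole coding part of 591 bp, in a structure-based copy of 9790 bp. The coding part of Mp6g03500, 210 bp, was likewise all Copia, and Mp1g06970 and Mp1g15480 had 1029 of 1611 and 830 of 921 coding bp in Copia. Mp6g07870 held 1313 exon bp, 159 of them coding. Mp2g21760 held 1291 and Mp5g06630 1121 exon bp, with none in the coding part.

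Genes of DNA methylation had Copia copies at varied distances. The 8 symbols of the list were matched to loci by number and by gene length within 5%, so the names rest on that match. MpMET (Mp6g18180, chromosome 6, 20269397 to 20281226, minus strand) had its nearest Copia copy 2647 bp upstream, a 170 bp terminal repeat TE_00000598. MpCMTa (Mp6g08650), a chromomethylase, had a 4382 bp TE_00001260 copy 732 bp downstream of its end. It is the copy that reaches into exons of Mp6g08660 on the other side. MpDNMT3b and the chromatin remodeller MpDDM1 had copies 2391 and 2769 bp downstream. For MpCMTb, MpDRMa, MpDRMb and MpDNMT3a the nearest copy was 10.3, 13.9, 53.3 and 72.0 kb away. In all 1 of 8 had a copy within 1 kb and 4 of 8 within 10 kb, against 2.45% and 25.2% of all autosomal genes. Mp4g09580, whose transcript the authors revised, had its nearest copy 15.6 kb downstream.

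Copia cover varied along the chromosomes, and no trend over their length was tested. The mean over 8 chromosomes was lowest between 10% and 20% of the length, at 1.53% ± 0.569, and highest between 40% and 50%, at 2.52% ± 0.856. The outer 20% of each chromosome, 10% at either end, had 2.06% ± 0.437 cover and the rest 1.93% ± 0.350. The difference of 0.134 ± 0.588 points did not pass the test (exact sign-flip permutation, n = 8, adjusted p = 0.674). It was positive on 7 chromosomes, by at most 0.784 points, and −1.20 points on chromosome 1. Without chromosome 1 the mean was 0.324 ± 0.256 points (exact sign-flip permutation, n = 7, adjusted p = 0.0379). Since chromosome 1 alone was negative, leaving it out gives 7 positive differences and the smallest raw p possible. This call therefore follows from the choice, and no excess at the ends can be read from it.

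**Figure D5:**
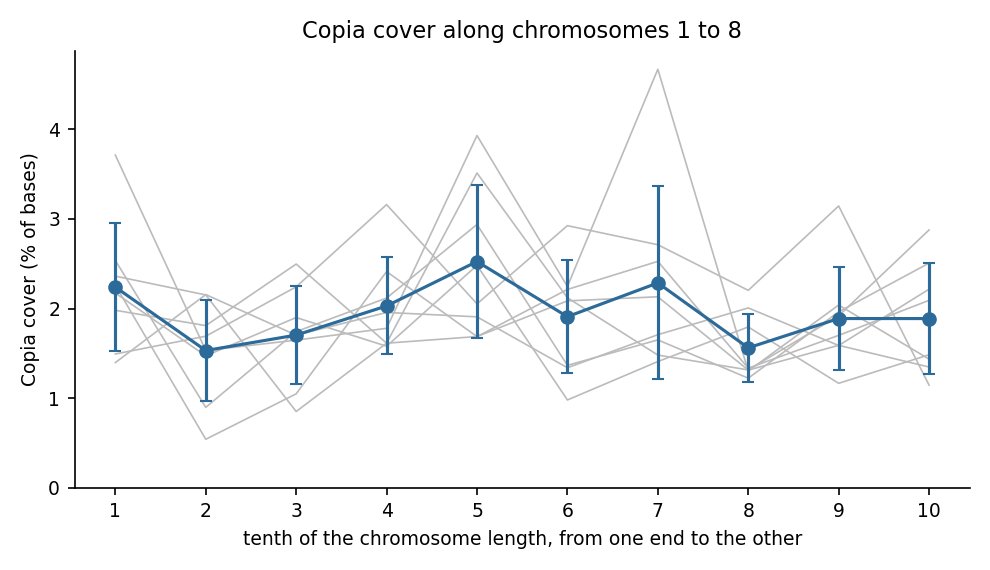
Copia cover in percent of bases in each of 10 equal parts of the chromosome length. Grey lines are the 8 chromosomes, and blue points with bars give the mean and SD; means lie between 1.53% and 2.52% with overlapping SDs.

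Copia cover followed gene density less closely than Gypsy cover did. Over 2078 windows of 100 kb the Pearson r with the number of genes was −0.0857 for Copia and −0.604 for Gypsy, and between Copia and Gypsy cover it was −0.0481. Within single chromosomes r for Copia lay between −0.245 on chromosome 2 and 0.0205 on chromosome 4, and for Gypsy between −0.681 and −0.516. Windows of 1 chromosome are not independent, and these values are a description. No Copia base was annotated in 24.2% of the windows. The richest window, with 23.1%, was on chromosome 6 (14800001 to 14900000), where TE_00000397 made up 18.0 kb.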

How the data were processed

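Both files were deposited by the authors as GTF annotations, named for MpTak1 v5.1 revision 2, and hold positions in bp counted from 1. The element file names EDTA as the source of every row, per the file's source column, its version and settings being not given in the sources used here. Library values are in no column. A gene was the span of its exon rows, and introns were bases of genes in no exon. Overlapping copies were merged before bases were counted, except in sums of copy lengths (kinds of copy, Copia per gene in introns, leading label of a window). A chromosome ended at its last feature. Named families and genes were the 10 with most Copia bases (families; exons; introns), genes with intronic structure-based copies, the longest such copy per chromosome, and the methylation list, with symbols from the MpTak2 v7.1 table. Differences paired by chromosome were tested by exact sign-flip permutation, with Benjamini-Hochberg adjustment over 17 tests and a threshold of 0.05, tested on simulated data. The alternatives are other gene sets, transcripts, copy lengths, distances and chromosomes. Members and lists were chosen with earlier results of these data known. No sequence was used. Tables were made in Python 3.11.15 with pandas 2.3.3 and numpy 2.4.6, Wilson intervals with scipy 1.17.1, and plots with matplotlib 3.10.9.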

Additional observations from a re-analysis of the deposited data

Results flagged for a closer look

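By Dixon's criterion at the 95% level, a chromosome stood apart from the other 7 in 6 of 19 sets of values, and chance alone flags about 1 set in 20. The sets share values, so the 6 are not separate. Chromosome 8 stood apart in the antisense share of intronic Copia copies, at −12.5 points from 50%. It did so too in the exon share of Copia minus that of LTR elements of no superfamily, at −8.15 points. The difference between terminal repeats and inner parts in median length was smallest there, at −54.5 bp, and that between Copia and Gypsy inner parts was largest, at −276 bp. Chromosome 1 stood apart in the outer minus inner Copia cover, at −1.20 points, and in the median length of Copia minus Gypsy terminal repeats, at −227.5 bp.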

How the results depend on the processing

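No paired analysis was possible because the files hold no value of any library, so numbered libraries could not be paired, and the pairs tested here are values of the same chromosome. Of 70 planned or added alternatives to the tested differences, other than leaving out a chromosome and those whose outcome could not change, 65 kept direction and call. The antisense excess fell to 20.4 points with the copy nearest the gene start and to 18.3 points in genes with a single copy, and neither passed. The upstream antisense share turned to 4.33 points above 50% with 500 bp, the difference of repeats and inner parts near genes to −0.354 points with copies of at least 200 bp, and outer minus inner cover to −0.116 points with the outer 40%; none was called in either form. Copies per Mb moved to 21.8 with copies of at least 200 bp, which leaves fewer copies. With each chromosome left out, the exon difference lay between 0.527 and 0.850 points for Gypsy and between −2.81 and −1.61 for unclassified LTR elements, and the intron difference to the latter between 2.13 and 2.78. The antisense excess lay between 19.3 and 26.6 points. All 4 lost the call with any 1 of 6 chromosomes left out (exact permutation, adjusted p = 0.0531). In each case the opposed chromosome was still included and the raw p was the lowest this allows. The loss thus follows from the number of chromosomes and singles out none of them. The upstream share lay between −5.62 and 2.55 points, the structure-based intron difference between −1.16 and 2.98, and outer minus inner cover between 0.0414 and 0.324.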
